A study of Mus musculus with 12 samples.

Results

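The 10 genes described here act on the translation factor eIF2 or on ribosomes that have stopped on a messenger RNA. They are the eIF2 alpha kinases Eif2ak1, Eif2ak2, Eif2ak3 and Eif2ak4, the regulatory subunits of the eIF2 phosphatase, Ppp1r15a and Ppp1r15b, and the stalled-ribosome rescue genes Gtpbp1, Gtpbp2, Pelo and Hbs1l. They were taken by name from 38924 genes. Each symbol matched 1 gene, and all 10 passed the filter on low counts.

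P278KY mice were heterozygous for the P278KY allele of Gars, with 3 females (mice 3, 4 and 9) and 3 males (mice 6, 7 and 8), and the WT mice were 3 females (mice 1, 2 and 10) and 3 males (mice 5, 11 and 12). Gars encodes glycyl-tRNA synthetase, which loads glycine onto its tRNA, and dominant Gars alleles in mice model a form of Charcot-Marie-Tooth peripheral neuropathy. All 12 mice were 8 weeks old, were labelled with a mixed B6J and CAST background, and gave 1 library each of polyadenylated RNA from whole spinal cord. The labels name no treatment. The allele is in the germ line, so it is carried by every cell type of the cord.

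When eIF2 alpha is phosphorylated, most translation initiation falls while a few messengers, Atf4 among them, are translated more. Different stresses act through different kinases: Eif2ak1 (HRI) responds to haem shortage and mitochondrial stress, Eif2ak2 (PKR) to double-stranded RNA, Eif2ak3 (PERK) to unfolded protein in the endoplasmic reticulum, and Eif2ak4 (GCN2) to uncharged tRNA and stalled ribosomes. Ppp1r15a (GADD34), which is induced by stress, and Ppp1r15b (CReP), which is made constitutively, bring protein phosphatase 1 to eIF2 alpha and reverse the mark. Pelo and its GTPase partner Hbs1l split ribosomes that have stalled, and the related GTPases Gtpbp1 and Gtpbp2 act on ribosomes that pause during elongation. The C57BL/6J strain is known to carry a mutation in a nervous system tRNA for arginine, and in that strain loss of Gtpbp2 leads to neuron death. Whether the B6J copy of that tRNA gene was present in each of these mice was not analysed here. Transcript levels do not measure kinase activity or phosphorylation.

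Library totals ran between 26982140 and 39339999 expected counts. The 10 genes had 314 to 3138 counts per library. No neuron, oligodendrocyte, astrocyte or microglia marker was at 0 throughout the libraries. Summed motor neuron markers (9 genes, 5 called lower) were at 157.8 to 185.3 normalised counts per 1000000 (CPM) in P278KY mice and 217.4 to 307.5 CPM in WT mice, and summed Schwann cell markers (9 genes, 2 called lower) at 657.9 to 1858 and 1779 to 2892 CPM. General neuron markers (8 genes, 1 called higher and 1 lower) summed to 4353 to 4616 and 4465 to 5708 CPM, with WT female 1 the lowest WT mouse. Of 8 astrocyte markers 1 was called higher, and of 8 oligodendrocyte and 8 microglia markers 0 were called. Skeletal muscle RNA was uneven over the libraries, with summed markers of 97.74 to 3266 CPM in P278KY mice and 96.96 to 8733 CPM in WT mice and the 4 highest values in mice 1 to 4. Sensory ganglion markers (11 genes, 1 called higher and 1 lower) summed to 48.74 to 130.9 CPM and 54.76 to 117.9 CPM, highest in mice 7, 10 and 11. The sensory ganglion marker called lower is also in the motor neuron list. In whole tissue, fewer cells of a type and less RNA per cell cannot be told apart, and the part of these differences in the results below was not tested except where a value without those mice is given.

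Per transcript length, the rescue GTPase Gtpbp2 was the most abundant of the 10 genes. Its level averaged 80.1 ± 7.63 transcripts per 1000000 (TPM; SD over the 12 mice), and it lay above the next gene in all 12 libraries. That rank depends on the mean length assigned to it, 1339 to 1567 bases, from 17 listed transcripts of which 4 are protein coding. In CPM, which is not scaled by length, Gtpbp2 averaged 57.8 in P278KY mice and 54.6 in WT mice. Eif2ak1 (83.6 and 81.3 CPM) and Ppp1r15b (77.4 and 74.3 CPM) were higher on that scale. In TPM, Hbs1l (39.6 ± 1.37 TPM) and Eif2ak1 (38.0 ± 2.58 TPM) came next after Gtpbp2, with overlapping ranges. Ppp1r15b averaged 28.0 ± 2.27 TPM and Gtpbp1 20.03 ± 1.47 TPM, each apart from the gene above it. The range of Gtpbp1 overlapped those of Pelo and Ppp1r15a, although Gtpbp1 lay above Pelo in all 12 libraries. Pelo (16.4 ± 0.751 TPM), Eif2ak3 (16.2 ± 1.05 TPM) and Ppp1r15a (16.1 ± 3.08 TPM) could not be put in order, since their ranges overlapped. Eif2ak4 averaged 12.4 ± 0.895 TPM, and its range overlapped that of Ppp1r15a. Eif2ak2 was lowest at 8.51 ± 1.096 TPM, below Eif2ak4 in every library. Hbs1l varied least between mice, with a coefficient of variation of 3.46%, and Ppp1r15a most, with 19.1%.

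**Figure D1:**
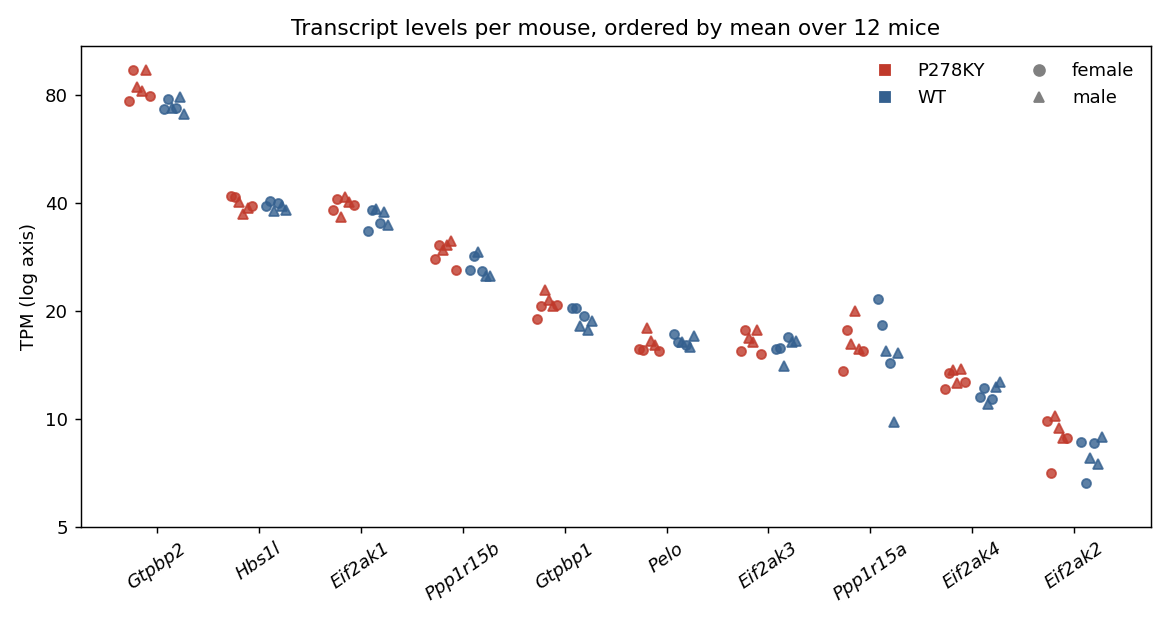
Level of each gene in TPM on a log axis, 1 point per mouse, with P278KY mice left of WT mice and genes ordered by the mean over 12 mice. Gtpbp2 stands apart at 70.8 to 94.2 TPM, and the points of Ppp1r15a are the most spread, at 9.78 to 21.7 TPM.

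The make-up of each family was close in the 2 genotypes. Eif2ak1, the haem-regulated kinase, gave 50.6 ± 1.84% of the summed kinase TPM in P278KY mice and 50.4 ± 2.50% in WT mice (SD, n = 6 each). Eif2ak3 gave 21.2 ± 0.9798% and 22.03 ± 1.29%, Eif2ak4 16.7 ± 0.755% and 16.4 ± 0.742%, and Eif2ak2 11.6 ± 1.57% and 11.1 ± 1.32%. Of the phosphatase subunits, constitutive Ppp1r15b gave the larger share, 64.2 ± 2.58% in P278KY mice and 63.3 ± 5.68% in WT mice. Gtpbp2 gave 52.5 ± 2.15% of the rescue genes' TPM in P278KY mice and 49.98 ± 1.23% in WT mice, and Pelo gave the smallest share, 10.01 ± 0.657% and 11.02 ± 0.538%. These shares were not tested. Summed over the family, kinase TPM was 78.3 ± 2.08 in P278KY mice and 72.1 ± 1.63 in WT mice, on a scale where the median gene was also higher in P278KY mice, by 0.06 in log2(TPM + 1).

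None of the 10 genes was called between the genotypes. In edgeR's quasi-likelihood test with sex in the model, 0 of 10 had a Benjamini-Hochberg adjusted p under 0.05, where 956 of 17980 tested genes did (5.32%; 2.36% higher and 2.95% lower in P278KY). Over all genes, 425 were called higher and 531 lower on counts, against 1358 and 248 with limma on log2(TPM + 1). With 1 library left out, the 956 ranged from 542 (2.97%, without P278KY male 6) to 1385 (7.60%, without WT female 1). Other low counts were 603 (without P278KY female 4), 623 (WT male 11) and 628 (P278KY male 7). None of the 10 was called in any of these fits. With 10 genes, a count of 0 is near that background. At an unadjusted p under 0.05, 1 of the 10 passed (Gtpbp2), against 20.2% of all tested genes. No member separated the genotypes in CPM, against 3.73% of tested genes whose 2 groups of 6 did not overlap. The members' median log2 change was 0.04, against -0.003 over all tested genes, with 6 positive and 4 negative.

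The intervals bound how large a change in the mean level of whole cord could have been missed, not a change confined to some cells. The largest of the 10 log2 changes in size was that of Pelo, -0.10. The called genes had a median size of 0.23, and 10 of the 956 (1.05%) were called at a smaller size than Pelo's. A call needs a change that is large beside its SE, so called genes are larger by selection. Standard errors (SE) were 0.03 to 0.06 on the log2 scale for 9 members and 0.10 for Ppp1r15a. For those 9 the 95% intervals lay within 0.867-fold and 1.13-fold, and for Ppp1r15a between 0.831-fold and 1.11-fold.

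**Figure D2:**
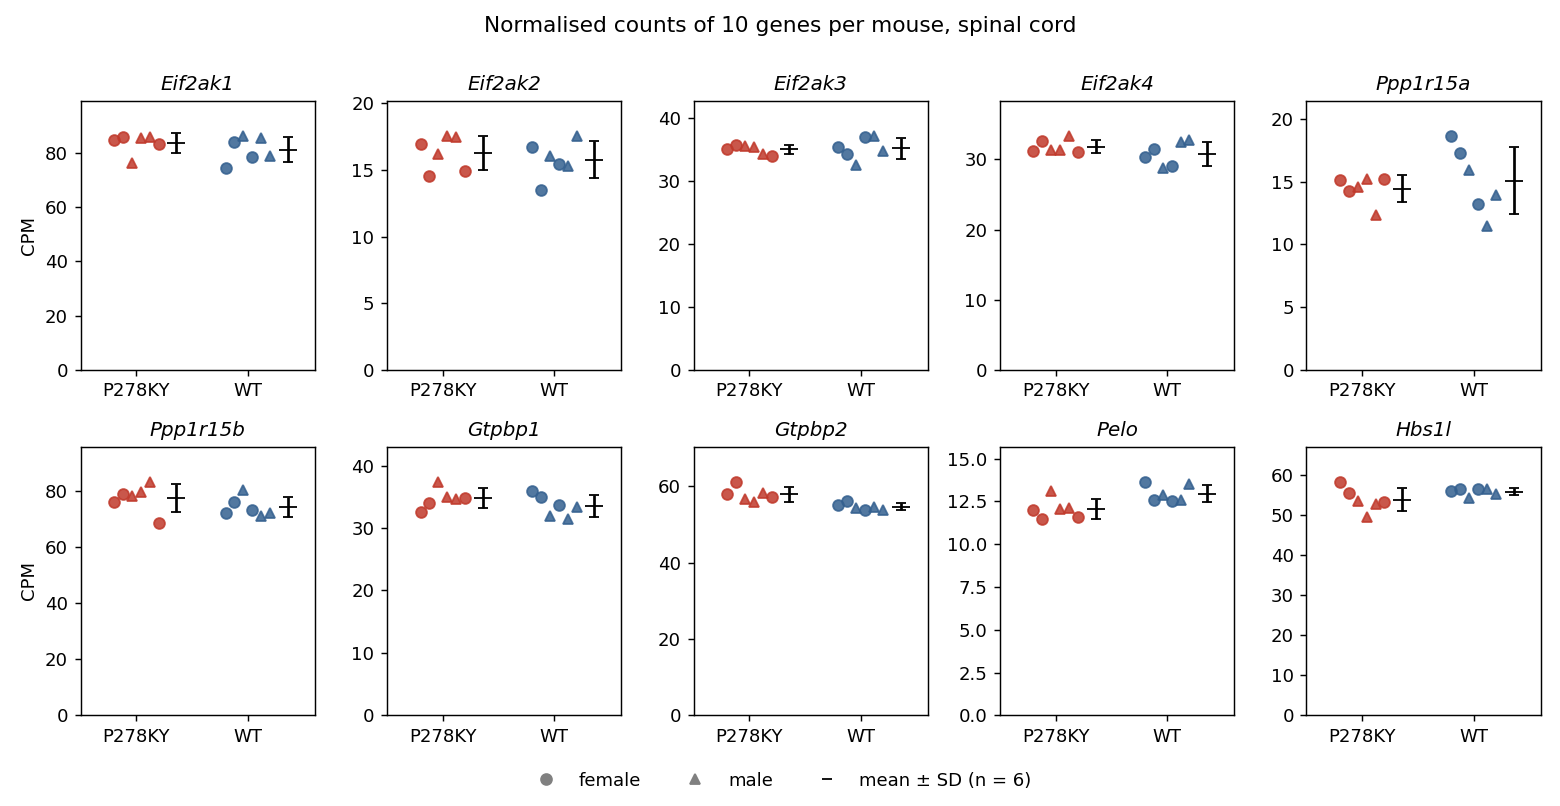
Normalised counts (CPM, axes from 0) of each gene, 1 point per mouse, with the mean and SD of 6 mice beside each genotype. The P278KY and WT points of every gene overlap, with Gtpbp2 and Pelo the nearest to separation.

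Among the kinases, Eif2ak4 is the one activated by uncharged tRNA. Eif2ak4 (chromosome 2, 118388618 to 118475234, plus strand; GRCm38 throughout) was at 31.1, 31.3 and 33.3 CPM (lowest, median and highest) in P278KY mice, against 28.7, 30.9 and 32.8 CPM in WT mice. The ranges overlapped, with 1 P278KY mouse above the highest WT mouse and 3 WT mice below the lowest P278KY mouse. The log2 change was 0.05 (SE 0.04, 95% interval -0.04 to 0.13, edgeR adjusted p = 0.589). Eif2ak1 (chromosome 5) was at 76.4, 85.1 and 85.9 CPM in P278KY mice, against 74.4, 81.5 and 86.2 CPM in WT mice. Its 2 groups covered almost the same range (log2 change 0.04, SE 0.04, adjusted p = 0.662).

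Eif2ak3, the sensor in the endoplasmic reticulum membrane, was at 33.9, 35.2 and 35.7 CPM in P278KY mice, against 32.5, 35.01 and 37.1 CPM in WT mice. All P278KY values lay inside the WT range, and the log2 change was nearest to 0 of the 10 genes, at -0.01 (SE 0.04, 95% interval -0.09 to 0.08, adjusted p = 0.954). Eif2ak2, the interferon-inducible sensor of double-stranded RNA, was at 14.6, 16.6 and 17.6 CPM in P278KY mice, against 13.5, 15.8 and 17.6 CPM in WT mice. The ranges overlapped almost wholly and the interval was wider, with a log2 change of 0.04 (SE 0.06, 95% interval -0.09 to 0.18, adjusted p = 0.753).

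The stress-induced phosphatase subunit Ppp1r15a (chromosome 7, 45522916 to 45526268, minus strand) was the member that varied most between WT mice. It was at 12.3, 14.8 and 15.2 CPM in P278KY mice, against 11.5, 14.9 and 18.6 CPM in WT mice. All 6 P278KY values lay within the WT range, with 3 WT mice above them and 1 below. Its log2 change was -0.06 (SE 0.10, 95% interval -0.27 to 0.15, adjusted p = 0.7999). The WT mice fell into a higher and a lower set: mice 1, 2 and 5 were at 18.6, 17.3 and 15.9 CPM, and mice 10, 11 and 12 at 13.2, 11.5 and 13.9 CPM. Mice 9 to 12 were formed into a set after their clock genes were seen to be low, with Dbp at 37.3 to 52.9 CPM there and 63.5 to 78.8 CPM in mice 1 to 8, and the labels name no batch for them. Among mice 1 to 8 the genotypes did not overlap in Ppp1r15a, as in 9.97% of all tested genes, with 12.3 to 15.2 CPM in 5 P278KY mice and 15.9 to 18.6 CPM in 3 WT mice, and the log2 change without mice 9 to 12 was -0.24 (adjusted p = 0.301). Among mice 9 to 12 the order was the other way round, with 15.2 CPM in the single P278KY mouse and 11.5 to 13.9 CPM in the 3 WT mice. Without mice 7, 10 and 11 the log2 change was -0.22 (adjusted p = 0.197), and without mice 1 to 4 it was 0.07 (adjusted p = 0.801). These subsets were formed after the data were seen, and the part that the set of mice, muscle RNA or ganglion RNA has in the spread was not tested.

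**Figure D3:**
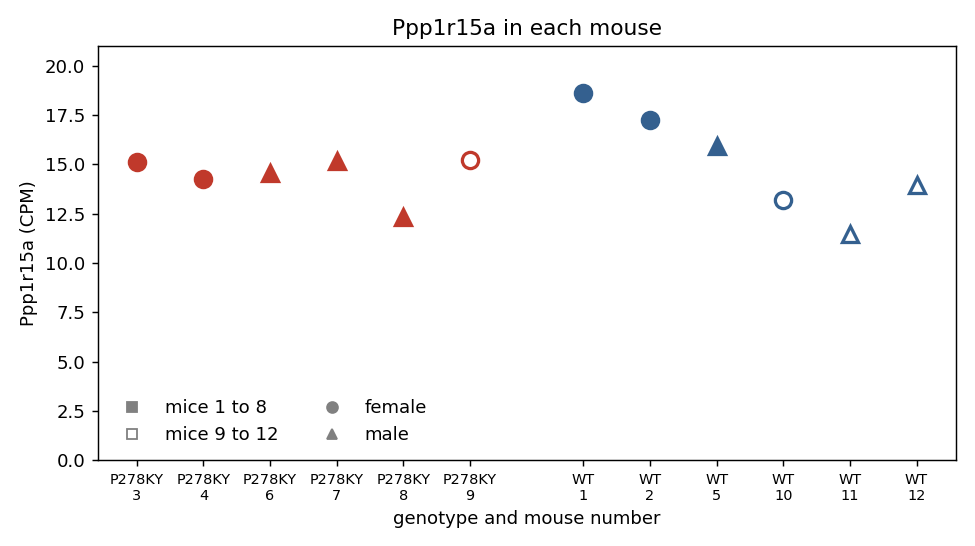
Ppp1r15a in CPM in each mouse, P278KY left and WT right, with filled symbols for mice 1 to 8 and open symbols for mice 9 to 12. The filled WT points (15.9 to 18.6 CPM) lie above the filled P278KY points, and the open WT points (11.5 to 13.9 CPM) lie below the open P278KY point (15.2 CPM).

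The constitutive subunit Ppp1r15b (chromosome 1) was at 68.4, 78.6 and 83.3 CPM in P278KY mice, against 71.2, 72.8 and 80.4 CPM in WT mice. Of its P278KY values 1 lay above and 1 below the whole WT range. The log2 change was 0.06 (SE 0.04, 95% interval -0.04 to 0.15, adjusted p = 0.504).

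Gtpbp2 (chromosome 17, 46161032 to 46169370, plus strand) was the member with the smallest p. It was at 55.8, 57.6 and 61.2 CPM in P278KY mice, against 53.7, 54.4 and 56.2 CPM in WT mice. The groups overlapped only through P278KY male 7 (55.8 CPM) and WT female 2 (56.2 CPM): the other 5 P278KY mice lay above every WT mouse. The means were 57.8 ± 1.87 CPM in P278KY mice and 54.6 ± 0.919 CPM in WT mice (SD, n = 6 each). The log2 change was 0.08 (SE 0.03, 95% interval 0.02 to 0.15), a fold of 1.06, with an unadjusted p of 0.0129 and an edgeR adjusted p of 0.121, which missed the threshold. By p it ranked 1927 of 17980 genes.

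In TPM, Gtpbp2 was at 77.3, 83.3 and 94.2 in P278KY mice, against 70.8, 73.8 and 79.4 in WT mice, with 5 P278KY mice again above every WT mouse. The exact two-sided permutation p for its TPM was 0.00866, without sex in the test. Of 10 such tests, 1 per member, 5 had an unadjusted exact p under 0.05, as did 25.8% of all tested genes (22.3% with the higher mean in P278KY mice), the others being those of Eif2ak1 (0.0238), Eif2ak4 (0.0217), Ppp1r15b (0.0433) and Gtpbp1 (0.0281), all with a higher mean TPM in P278KY mice. On log2(TPM + 1) values limma gave Gtpbp2 a log2 change of 0.18 with an adjusted p of 0.0581 over all genes, and called none of the 10. On that scale the median change of all tested genes was 0.06. TPM also follows the transcripts to which reads are assigned. The tables list 17 transcripts of Gtpbp2, 4 of them protein coding in GENCODE M21, and the mean length assigned to the gene ranged over 1339 to 1567 bases between mice. The lowest lengths were in P278KY male 8 (1339 bases) and WT male 11 (1403 bases).

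Gtpbp1 (chromosome 15), the related GTPase, was at 32.6, 34.7 and 37.4 CPM in P278KY mice, against 31.4, 33.5 and 35.9 CPM in WT mice. The ranges overlapped (log2 change 0.05, SE 0.04, 95% interval -0.04 to 0.15, adjusted p = 0.566).

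Pelo and Hbs1l, the partners that split stalled ribosomes, both had lower mean counts in P278KY mice, and neither passed. Pelo (chromosome 13, 115088355 to 115090186, minus strand) was at 11.5, 12.1 and 13.1 CPM in P278KY mice, against 12.5, 12.7 and 13.7 CPM in WT mice. P278KY male 6 was the exception at 13.1 CPM: the other 5 P278KY mice lay below every WT mouse. The log2 change was -0.10 (SE 0.05, 95% interval -0.21 to 0.00, adjusted p = 0.265). Pelo lies inside the integrin gene Itga1 on the same strand, so strand does not separate the reads of the 2 genes there. Itga1 itself was at 10.9 ± 0.851 CPM in P278KY mice and 12.2 ± 4.11 CPM in WT mice (SD, n = 6 each; log2 change -0.15, SE 0.15, adjusted p = 0.632).

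Hbs1l (chromosome 10) was at 49.7, 53.5 and 58.5 CPM in P278KY mice, against 54.5, 56.4 and 56.7 CPM in WT mice. The P278KY mice were the more spread: 4 lay below the lowest WT mouse and 1, female 3, above the highest. The log2 change was -0.05 (SE 0.03, 95% interval -0.13 to 0.02, adjusted p = 0.408).

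Within each sex, with 3 mice against 3, no member passed either. In females 0 of 10 were called (0.573% of all tested genes) and in males 0 of 10 (1.55%). At an unadjusted p under 0.05 Gtpbp2 passed in females (12.4% of all genes) and Gtpbp1 in males (14.3%), 1 member each. These shares move with single mice: with 1 left out, the genes called numbered 32 (without P278KY female 4) to 156 (without WT female 1) in females, against 103, and 76 (without WT male 11) to 431 (without WT female 1) in males, against 279, and no member was called. In females the 3 P278KY and 3 WT mice did not overlap for 2 members, Gtpbp2 (higher) and Pelo (lower), against 16.3% of all tested genes. In males they did not overlap for 3, Gtpbp1 and Gtpbp2 (higher) and Hbs1l (lower), against 23.0% of all tested genes. Gtpbp1 was at 34.7, 35.04 and 37.4 CPM in P278KY males, against 31.4, 32.0 and 33.3 CPM in WT males. In females it was at 32.6, 34.0 and 34.8 CPM in P278KY mice, against 33.7, 34.97 and 35.9 CPM in WT mice. The edgeR log2 change of Gtpbp1 was 0.15 in males (SE 0.05, unadjusted p = 0.0129, adjusted p = 0.192) and -0.04 in females (SE 0.05, adjusted p = 0.779). The difference between the sexes was 0.19 (SE 0.07, unadjusted p = 0.0198), and its adjusted p was 0.9999.

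For that interaction of genotype and sex, 0 of 10 members and 0 of all tested genes (0.0%) passed in edgeR. That 0 became 42 genes without P278KY male 7, 8 without WT female 1, 8 without WT male 5 and 1 without WT female 10, none a member. At an unadjusted p under 0.05 there was 1 member and 665 genes (3.70%), and limma voom with sample weights called 3 genes, none a member. Signs agreed between the sexes for 6 members and differed for 4. Between males and females themselves 0 of 10 members passed (0.089% of all tested genes), with 0 at an unadjusted p under 0.05.

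**Figure D4:**
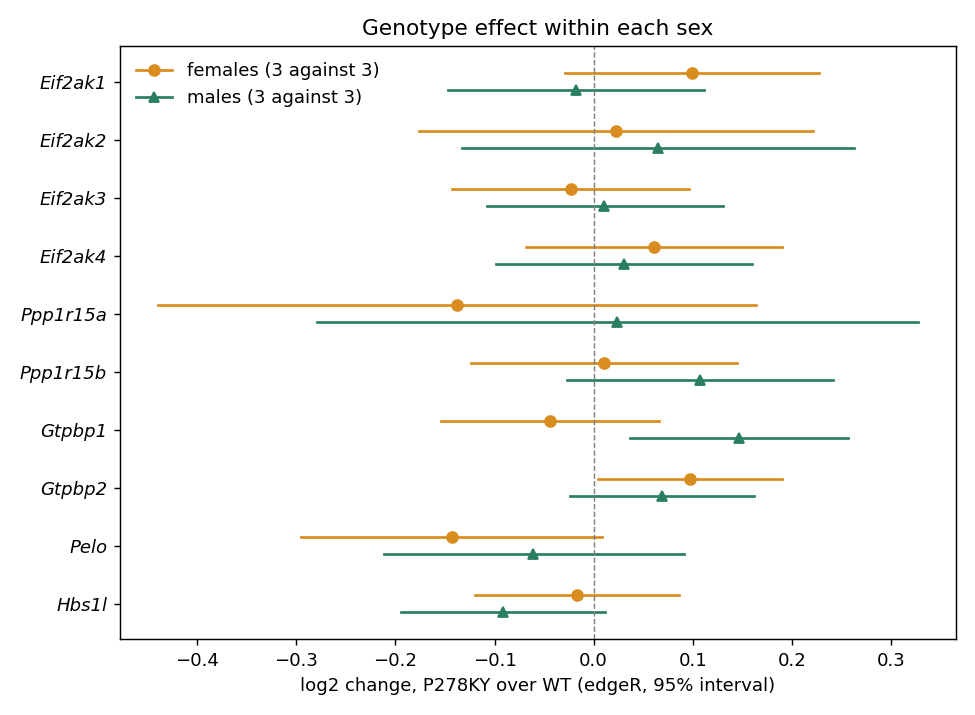
Log2 change (P278KY over WT) of each gene with its 95% interval in females (circles, 3 against 3) and males (triangles, 3 against 3), from edgeR. Gtpbp1 in males (0.15) and Gtpbp2 in females (0.10) have intervals that leave out 0, and neither passed after adjustment.

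RSEM reports for each gene a mean transcript length weighted by abundance, which moves when the mix of transcripts moves. It varied for 8 members. Gtpbp1 and Pelo have a single transcript in the tables. In limma 0 of these 8 were called between the genotypes (0.0178% of 11216 genes with a varying length, 2 in number), and 0 had an unadjusted p under 0.05. Ppp1r15a had a wide range, 1657 to 2252 bases in P278KY mice and 1731 to 2303 bases in WT mice (log2 change -0.05, SE 0.10, adjusted p = 0.995). Eif2ak2 ranged over 3302 to 4234 bases in P278KY mice and 3521 to 4021 bases in WT mice. Hbs1l stayed within 2786 to 2791 bases in all 12 mice.

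Of 50 tested genes in 6 lists of the surrounding machinery, 2 were called (4.0%), near the share of all tested genes given above, and 9 (18.0%) had an unadjusted p under 0.05, also near the share of all genes. The eIF2 subunits (0 of 4), the subunits of its exchange factor eIF2B (0 of 5), regulators of the kinases (0 of 7) and the catalytic subunits of protein phosphatase 1 (0 of 3) had no gene past the edgeR threshold. At an unadjusted p under 0.05 those lists held 0, 2, 2 and 0 genes. The eIF2B genes Eif2b4 (log2 change -0.13, SE 0.05, adjusted p = 0.137) and Eif2b5 (-0.10, SE 0.04, adjusted p = 0.173) had the smallest p of their list. Impact, which blocks the activation of Eif2ak4 by Gcn1, was at 310.7 ± 15.2 CPM in P278KY mice and 284.7 ± 16.2 CPM in WT mice (SD, n = 6 each; log2 change 0.13, SE 0.04). Its edgeR adjusted p was 0.0946, and it passed in the DESeq2 Wald test (adjusted p = 0.0339). Dnajc3, an inhibitor of Eif2ak2 and Eif2ak3, had a log2 change of -0.12 (SE 0.05, adjusted p = 0.152). Eif2s2 (0.07, SE 0.03, adjusted p = 0.295), Eif2s1 (-0.04, SE 0.04, adjusted p = 0.629), Ppp1cb (-0.06, SE 0.05, adjusted p = 0.580) and Ppp1ca (-0.01, SE 0.03, adjusted p = 0.875) led the lists of their subunits.

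In the list of ribosome collision and quality control 1 of 17 genes rose and 0 fell, with a list median of 0.00. It was N4bp2, a relative of yeast and worm nucleases that cut messenger RNA at stalled ribosomes. N4bp2 was at 22.5 to 27.0 CPM in P278KY mice, against 18.4 to 22.5 CPM in WT mice, so the ranges met at their ends. The means were 25.5 ± 1.86 CPM in P278KY mice and 20.5 ± 1.36 CPM in WT mice, a fold of 1.24 (log2 change 0.31, SE 0.06, edgeR adjusted p = 0.00854). The call held in each of 12 fits with 1 mouse left out. It was lost without mice 7, 10 and 11 (0.29, adjusted p = 0.110) and without mice 9 to 12 (0.28, adjusted p = 0.0947).

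Of 14 genes of the SKI complex, the exosome and cytoplasmic decay 1 rose and 0 fell, with a list median of 0.025. Xrn1, the exonuclease that degrades decapped messenger RNA, was at 20.3 to 24.2 CPM in P278KY mice, against 15.0 to 20.5 CPM in WT mice (log2 change 0.29, SE 0.07, adjusted p = 0.0408). Its call was lost in 10 of the 12 fits with 1 mouse left out, where its log2 change stayed between 0.23 and 0.33 (highest adjusted p 0.0997). Among 20 interferon-stimulated genes, the class to which Eif2ak2 belongs, 0 rose and 1 fell, with a list median of -0.085. That count is near the 5.32% called among all tested genes. At an unadjusted p under 0.05 in edgeR the list held 1 gene, against 20.2% of all tested genes. Stat2, a transcription factor of the interferon response, was at 24.4 to 26.4 CPM in P278KY mice, against 25.7 to 30.0 CPM in WT mice (log2 change -0.15, SE 0.04, adjusted p = 0.0440). That call went in 11 of those 12 fits, where its log2 change was -0.18 to -0.13 over the 12 and the highest adjusted p was 0.101. The Stat2 call was also lost with limma on log2(TPM + 1) and log2(TPM + 0.1) values (adjusted p = 0.363 and 0.365). In edgeR with no filter its adjusted p was 0.0693.

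Of 11 effectors downstream of eIF2 phosphorylation, 5 rose in P278KY mice, 0 fell and 6 did not pass (Atf3, Atf5, Cebpg, Ddit4, Nupr1 and Trib3), and their median log2 change was 0.375, against -0.003 over all tested genes. These libraries had shown that rise before the list was drawn up, so the count is no independent evidence of it. The 4 with the smallest p were Sesn2 (log2 change 0.47, SE 0.045), Atf4 (0.27, SE 0.03), Ddit3 (0.37, SE 0.06) and Asns (0.28, SE 0.04), with edgeR adjusted p-values of 8.65e-05, 0.000621, 0.00213 and 0.00285. The other was Chac1, which degrades glutathione (0.53, SE 0.095, adjusted p = 0.00609). Chac1 missed the threshold both without mice 9 to 12 and without mice 7, 10 and 11, and Sesn2 passed it in both. Without mice 9 to 12 the changes of Atf4 (0.24, adjusted p = 0.0598), Ddit3 (0.38, adjusted p = 0.122) and Asns (0.28, adjusted p = 0.143) missed the threshold, and Asns also did without mice 7, 10 and 11 (0.27, adjusted p = 0.0606).

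**Figure D5:**
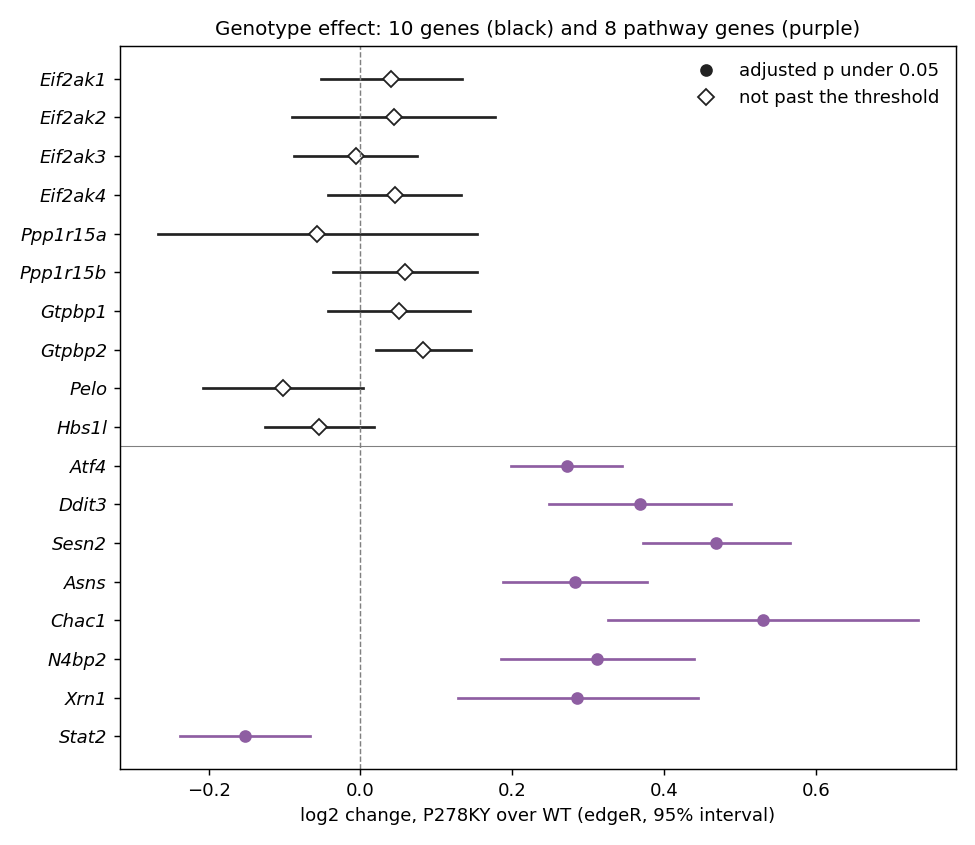
Log2 change (P278KY over WT) with its 95% interval in edgeR for the 10 genes (black, open diamonds, none past the threshold) and the 8 pathway genes with an adjusted p under 0.05 (purple circles). The 10 genes lie between -0.10 and 0.08, 7 pathway genes between 0.27 and 0.53, and Stat2 at -0.15.

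Ppp1r15a is itself a known target of the same stress response. Its 95% interval of -0.27 to 0.15 lay below those of Atf4 (0.20 to 0.345), Ddit3 (0.25 to 0.49), Sesn2, Asns, Chac1 and Trib3. It overlapped those of the other effectors: Atf3 (0.07 to 0.86), Atf5 (0.11 to 0.41), Cebpg (-0.025 to 0.16), Ddit4 (0.10 to 0.65) and Nupr1 (0.12 to 0.93). The difference between the genes was not tested.

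Promoter windows (250 bases before to 50 after the start site, RefSeq, GRCm38.p6) were given for 9 of the 10 genes, in 10 windows, and not for Ppp1r15b. The letters TGATGNAA, the core of the element bound by ATF4 with C/EBP factors, were searched on both strands. They occur in 3.97% of 32851 windows, in none of the 10 member windows and in those of 5 of the 11 effectors (Asns, Atf3, Chac1, Nupr1 and Trib3). The interferon-stimulated response element occurs in 3.44% of windows, Eif2ak2 and Ppp1r15a among them. The ER stress response element occurs in 0.119% of windows and in none of the members'. The cAMP response element TGACGTCA, which was added after the Ppp1r15a window had been read, occurs in 1.79% of windows and, of the members, in that of Ppp1r15a. A match describes letters only, and none of these sites was measured here.

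Shown 5′ to 3′ on each gene's own strand are the kinase that has the interferon element, the phosphatase subunit that has 2 elements, and Asns, an effector that rose and has the ATF4 element. Capitals mark the elements: in Eif2ak2 the interferon element at +19 to +28, in Ppp1r15a the interferon element at -220 to -211 and the cAMP element at -12 to -5, and in Asns the ATF4 element at -23 to -16, counted from the start site. The stretches printed are cut from the searched windows, with all 250 bases before the start site and 28, 0 and 0 bases after it, at chr17:78882545-78882822 (minus strand), chr7:45526269-45526518 (minus strand) and chr6:7693210-7693459 (minus strand).
Eif2ak2: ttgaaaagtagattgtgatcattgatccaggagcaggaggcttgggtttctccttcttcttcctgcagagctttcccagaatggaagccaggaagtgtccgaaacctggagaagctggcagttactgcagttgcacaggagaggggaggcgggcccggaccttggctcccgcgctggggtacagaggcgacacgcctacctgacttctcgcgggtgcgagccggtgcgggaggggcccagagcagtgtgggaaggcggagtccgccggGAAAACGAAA
Ppp1r15a: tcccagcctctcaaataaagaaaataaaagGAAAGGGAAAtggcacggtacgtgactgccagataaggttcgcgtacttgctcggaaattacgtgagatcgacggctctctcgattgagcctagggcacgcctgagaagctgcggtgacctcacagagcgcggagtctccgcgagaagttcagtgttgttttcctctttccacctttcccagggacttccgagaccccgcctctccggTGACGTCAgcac
Asns: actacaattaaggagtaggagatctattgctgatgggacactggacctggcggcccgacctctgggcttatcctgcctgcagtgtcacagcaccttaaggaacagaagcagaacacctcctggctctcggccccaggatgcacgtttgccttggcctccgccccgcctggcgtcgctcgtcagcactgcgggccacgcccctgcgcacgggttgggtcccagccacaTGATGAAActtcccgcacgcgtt

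For likeness of pattern, log2 CPM was compared over the 12 libraries with that of 15497 tested genes with a mean of at least 1 CPM, and the nearest gene by Pearson's r was taken. It was Serac1 for Gtpbp2 (r = 0.884), Prrt4 for Ppp1r15a (0.915), Lrrc4 for Ppp1r15b (0.963), Lactb2 for Pelo (0.918) and Hadhb for Hbs1l (0.932). For the kinases it was Rac1 for Eif2ak1 (0.942), Zfp946 for Eif2ak2 (0.930), Foxk2 for Eif2ak3 (0.854) and Krt25 for Eif2ak4 (0.864), and for Gtpbp1 it was Hcn3 (0.868). These are the highest of many comparisons over libraries that share genotype, sex and the tissue differences above, and they are given as a description.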

How the data were processed

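RNA-seq of whole spinal cord from 12 mice (3 per sex and genotype) was analysed from 1 table of genes per mouse. Per the submitters' processing notes, the authors used Bowtie2 2.2.0 and RSEM 1.2.12; no source used here states the genome build or annotation. Per the labels' protocols, libraries were stranded and read as pairs of 75 bp. Per the file headers, the authors gave expected counts. In RSEM these are estimates in which a read that fits several genes is divided among them. Per the file headers, the authors also gave TPM, which is relative to transcript length and the library's sum, and FPKM, which was left unused. Their length column holds abundance-weighted means over a gene's transcripts.

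Expected counts were rounded, filtered with filterByExpr over the 4 groups (17980 genes left), scaled by TMM and tested with edgeR 4.0.16 (robust quasi-likelihood F test, sex and genotype as terms; 4 group means for effects within a sex and their interaction). P-values were adjusted by Benjamini-Hochberg over all tested genes, at a threshold of 0.05. SE is the log2 change divided by the square root of F, and intervals are 95%. Lengths were tested with limma 3.58.1 on a log2 scale. Alternatives were DESeq2 1.42.0 (size factors, Wald test), voom with sample weights, no filter, a filter of 1 CPM or more in 6 or more libraries, no sex term, limma on log2(TPM + 1) and log2(TPM + 0.1), and each mouse left out. Scripts were tested on simulated data. R 4.3.3 and Python 3.11.15 were used. Gene positions came from GENCODE M21 (GRCm38).

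The members and all gene lists were chosen with earlier results of these data known. Named genes are all 10 members and, from each of 8 pathway lists (81 tested genes), those past the threshold, the 4 with the smallest p where more passed, or up to 2 with the smallest p where none did. Names outside that rule (Itga1, Dbp, Chac1 and the effectors that did not pass, the effectors with a promoter match and the genes of like pattern) came from annotation, motif search or correlation. The mouse is the replicate, and p-values set a difference between groups against the spread between mice. No separate litters are named in the labels.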

Additional observations from a re-analysis of the deposited data

Results flagged for a closer look

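In 36 groups of 6 values examined (each genotype's CPM and mean length of the members), 3 held a value far from the other 5 by Dixon's criterion, which chance alone gives in about 1 of 20 groups. Eif2ak1 was at 76.4 CPM in P278KY male 6, below the next lowest P278KY mouse at 83.2 CPM. That library had the largest total of the 12. Ppp1r15a was at 12.3 CPM in P278KY male 8, below the next at 14.3 CPM. The mean length assigned to Gtpbp2 was 1403 bases in WT male 11, against 1502 bases in the next lowest WT mouse. The cause was not tested for any of the 3.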

How the results depend on the processing

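None of the 10 members was called under any of 23 alternatives (230 values, 13 of them with the sign turned), and the lowest adjusted p was 0.0574, for Gtpbp2 on log2(TPM + 0.1) values. Counts of members called were also 0 under each alternative run for each sex, the interaction, the sex effect and the mean length. No paired analysis was possible because the mouse numbers are not shared between groups. The pathway genes called, 8 in all, were 3 without mice 7, 10 and 11 and 1 without mice 9 to 12. With 1 mouse left out they were 6 to 12. Over all tested genes the calls fell too, from 956 of 17980 to 253 of 18147 without mice 7, 10 and 11. Without mice 9 to 12 they fell to 84 of 18725, and with 1 mouse left out they numbered 542 to 1385.

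Some small changes turned sign, all at an adjusted p over 0.25. On log2(TPM + 0.1) and log2(TPM + 1) values, where the median of all genes moved to 0.07 and 0.06, the log2 changes were 0.060 and 0.057 for Eif2ak3, 0.087 and 0.081 for Ppp1r15a, 0.020 and 0.020 for Hbs1l, 0.035 and 0.033 for Eif2s1, 0.029 and 0.029 for Ppp1cb, and 0.063 and 0.063 for Ppp1ca. Ppp1r15a was at 0.011 with voom and 0.069 without mice 1 to 4. Eif2ak3 was at 0.025 without mice 7, 10 and 11 and 0.061 without mice 9 to 12, and Ppp1ca at 0.001 without mice 1 to 4. With 1 mouse left out, Eif2ak3 ranged over -0.031 to 0.011 and Ppp1ca over -0.027 to 0.007. The cause was not tested. Some genes that missed the threshold passed elsewhere: Impact and Eif2s2 on both TPM scales (adjusted p = 0.0152 to 0.0171), Eif2b4 without WT female 1 (0.0284) and Dnajc3 without WT female 2 (0.0132). Depth was at least 314 counts per member and library.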
